A study of Homo sapiens with 21 samples.

Results

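The condensin genes, the paired topoisomerase II genes TOP2A and TOP2B, and MKI67 encode proteins that give mitotic chromosomes their shape. The 10 genes described here were SMC2, SMC4, NCAPD2, NCAPD3, NCAPG, NCAPG2, NCAPH, TOP2A, TOP2B and MKI67, selected by symbol from 23368 genes listed, of which 19694 varied and were tested. All 10 varied and were tested. MKI67 was included because its difference from untreated cells at 24 h of H2O2 was the lowest of all genes, so the H2O2 24 h values against untreated cells chose the set and are given below as a description, with no test.

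Condensins are ring-shaped complexes that use ATP to extrude loops of DNA and so compact chromatids before they separate. SMC2 and SMC4 form the ATPase core of both condensin complexes, to which condensin I adds NCAPD2, NCAPG and NCAPH, and condensin II adds NCAPD3, NCAPG2 and NCAPH2. Topoisomerase II passes DNA duplexes through each other to untangle sister chromatids. TOP2A is the form that dividing cells use in mitosis, and TOP2B is made in dividing and resting cells alike. MKI67 encodes Ki-67, the protein that coats mitotic chromosomes, keeps them apart from each other and is widely used as a marker of cycling cells.

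RNA was measured by mRNA sequencing in hTERT-HPNE, a non-transformed pancreatic cell line made immortal with telomerase and grown with EGF and puromycin. One group of 3 libraries came from untreated cells at 0 h. The other 6 groups, with 3 libraries each and 21 in all, came from cells 4, 8 and 24 h after 300 µM hydrogen peroxide (H2O2), which causes oxidative stress, or after 400 ng/ml neocarzinostatin (NCS), a radiomimetic drug that breaks both DNA strands. Cells had grown on the plates for 24 h and received fresh medium at treatment. All treated groups were compared with the same untreated libraries, so treatment and time in culture cannot be told apart in those comparisons.

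All values are rLog values, a log2 scale of read counts normalised for library size in which noisy differences are shrunk, so that a difference of 1 is a 2-fold change after shrinkage. Read totals were not used here and the depth of the libraries is unknown. NES (mean 12.0) and VIM (17.0) were expressed in the line. Of 8 ductal and epithelial markers, KRT18 (11.6), KRT8 (7.93), KRT7 (6.93), SOX9 (6.07) and CDH1 (3.79) were present, and KRT19 (0.60), EPCAM (-1.76) and PDX1, which was listed at 0, were not. All 5 acinar markers, all 4 endocrine markers and 3 of 4 blood and endothelial markers were near 0 or listed at 0.

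One library stood apart. H2O2 8 h replicate 2 lay 13.8 from the mean of its own replicates (root of the summed squared differences over all genes), against 7.84 to 11.2 for the other 20 libraries, and all 10 members were higher there than in the other H2O2 8 h libraries. Results that use the H2O2 8 h group are therefore given with and without it. H2O2 24 h replicate 2 was the lowest of its group in all 10 members, by small amounts, and at 7.84 lay closest of the 21 libraries to its own replicates. With it left out, the 24 h comparison with NCS again called 2 members higher in H2O2.

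The promoters of the members are shown first, because 9 of the 10 genes were lower at 24 h of NCS and TOP2B did not pass the test there. Genes of late G2 and mitosis often carry a cell cycle genes homology region (CHR), read by MuvB complexes, near CCAAT boxes, read by NF-Y, and genes of S phase more often carry E2F sites. RefSeq start sites (build GRCh38.p14) gave 14 windows for the 10 members, each from 250 bases before to 50 after a start. The windows printed here are those of MKI67, TOP2A, NCAPH and NCAPG, the members with the lowest differences at 24 h of NCS, and the TOP2B window that holds matches. Capitals mark the searched motifs on either strand.
MKI67, chr10:128126374-128126673, minus strand: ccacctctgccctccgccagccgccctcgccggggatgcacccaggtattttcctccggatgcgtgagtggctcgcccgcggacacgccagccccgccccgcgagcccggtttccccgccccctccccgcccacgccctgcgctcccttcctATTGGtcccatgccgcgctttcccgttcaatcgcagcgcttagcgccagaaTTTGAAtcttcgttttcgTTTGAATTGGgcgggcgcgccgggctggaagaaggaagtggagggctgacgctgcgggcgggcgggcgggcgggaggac
TOP2A, chr17:40417847-40418146, minus strand: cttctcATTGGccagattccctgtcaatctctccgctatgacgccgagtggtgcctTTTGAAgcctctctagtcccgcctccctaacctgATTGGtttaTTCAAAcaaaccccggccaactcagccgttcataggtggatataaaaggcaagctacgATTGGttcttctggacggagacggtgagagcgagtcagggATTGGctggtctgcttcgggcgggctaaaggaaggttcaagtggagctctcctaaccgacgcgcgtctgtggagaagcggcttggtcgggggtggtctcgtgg
NCAPH, chr2:96335516-96335815, plus strand: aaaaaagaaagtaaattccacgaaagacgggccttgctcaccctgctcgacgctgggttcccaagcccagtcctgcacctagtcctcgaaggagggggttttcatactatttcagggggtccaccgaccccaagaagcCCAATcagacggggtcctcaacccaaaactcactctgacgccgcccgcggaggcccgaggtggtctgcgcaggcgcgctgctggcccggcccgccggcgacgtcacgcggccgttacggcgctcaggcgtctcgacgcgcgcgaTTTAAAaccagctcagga
NCAPG, chr4:17810729-17811028, plus strand: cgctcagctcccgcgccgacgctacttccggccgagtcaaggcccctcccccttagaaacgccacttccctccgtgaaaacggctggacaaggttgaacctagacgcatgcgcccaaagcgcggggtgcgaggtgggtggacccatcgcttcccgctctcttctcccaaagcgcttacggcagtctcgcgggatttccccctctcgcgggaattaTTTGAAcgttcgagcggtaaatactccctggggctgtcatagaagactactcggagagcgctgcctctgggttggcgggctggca
TOP2B, chr3:25664858-25665157, minus strand: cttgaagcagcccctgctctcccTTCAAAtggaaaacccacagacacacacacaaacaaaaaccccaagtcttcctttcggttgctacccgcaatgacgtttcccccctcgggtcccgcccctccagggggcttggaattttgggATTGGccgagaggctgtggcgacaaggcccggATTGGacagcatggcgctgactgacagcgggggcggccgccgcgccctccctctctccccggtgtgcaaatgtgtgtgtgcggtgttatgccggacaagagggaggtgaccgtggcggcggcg

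The letters searched for CHR were TTTGAA, and also TTTAAA. For the CCAAT box they were CCAAT. For E2F the octamer TTTCCCGC was searched, with the same octamer carrying GG, CG or GC in place of its CC pair. Every search covered both strands. MKI67 held CHR letters starting 47 and 29 bases before its start, and CCAAT letters at 98 and 24 bases before it. The nearer pair overlapped by 1 base. TOP2A held CHR letters at 194 and 151 bases before its start and 4 CCAAT matches. NCAPH held CHR letters 32 bases after its start and CCAAT letters 112 bases before it. NCAPG held CHR letters at 35 bases before its start and no CCAAT match in this window.

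CHR letters were in 10 of the 14 windows (71.4%), at least 1 window for each of the 10 genes, against 24.0% of all 35116 windows in the RefSeq table. CCAAT was in 6 windows (42.9%, against 34.6% of all) and E2F in 1, that of NCAPD3 (7.14%, against 3.31% of all). TOP2B, whose RNA ended near its untreated level, also held CHR letters, at 227 bases before this start. The same window held CCAAT letters at 105 and 73 bases before the start. Its other window, with a GC content of 80.0%, held none of the motifs. A match says that the letters are there and not that a factor binds.

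**Figure D1:**
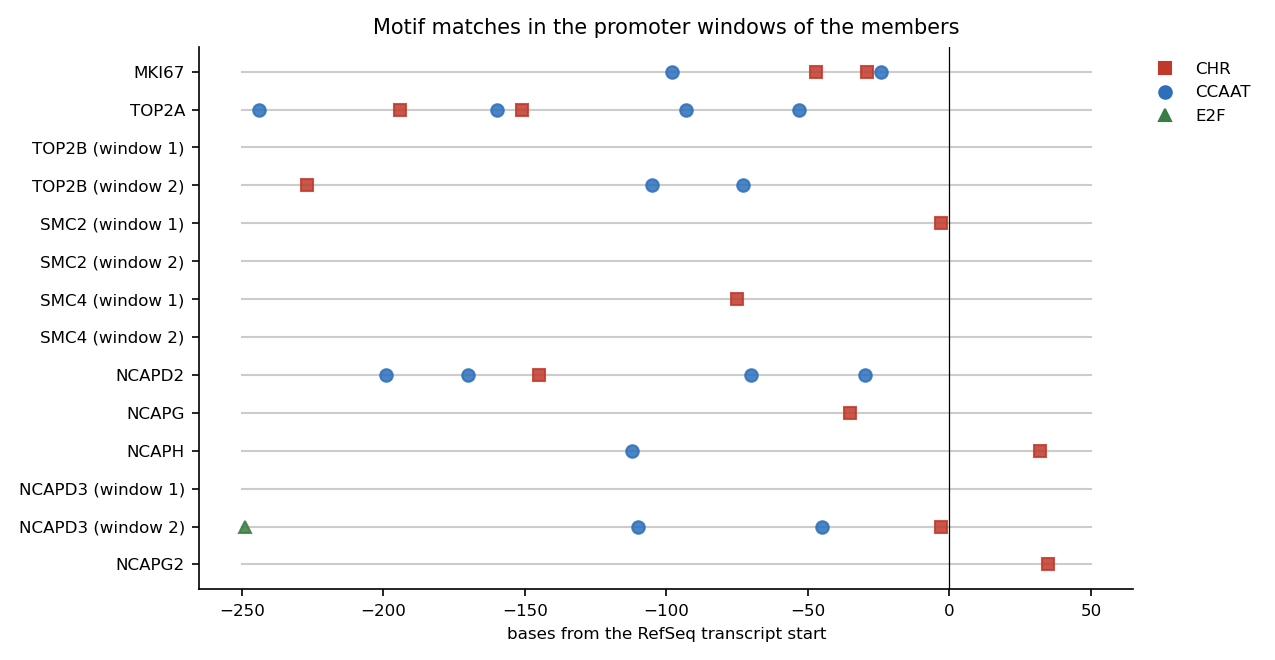
Positions of CHR (squares), CCAAT (circles) and E2F (triangle) matches in the 14 promoter windows of the 10 members; the horizontal axis gives bases from the RefSeq transcript start (vertical line). CHR matches lie in 10 of the 14 windows, and those of MKI67, NCAPG, SMC2 and NCAPD3 begin within 50 bases before the start.

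MKI67 was lower from the first time point on after either agent. The untreated libraries read 12.89, 12.99 and 12.96. NCS brought it to 11.94, 11.93 and 12.00 after 4 h. The 8 h NCS libraries read 11.72, 11.74 and 11.77, and those taken after 24 h read 10.13, 10.24 and 10.30. H2O2 gave 12.05, 12.19 and 12.04 after 4 h. Its 8 h libraries read 11.75, 12.15 and 11.75, and its 24 h libraries 10.51, 10.38 and 10.42. No treated library reached the untreated range, and within each treatment the 24 h libraries lay below all earlier ones.

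The 4 h NCS libraries differed from untreated cells by -0.99 ± 0.08 in MKI67 (SE, n = 3 in each group here and below, adjusted p = 4.18e-08). That difference was -1.20 ± 0.08 in the 8 h libraries (adjusted p = 1.7e-09). By 24 h of NCS it stood at -2.73 ± 0.08 (adjusted p = 3.78e-15), which leaves 15.1% of the untreated value once the log is undone. H2O2 lowered MKI67 after 4 h (-0.85 ± 0.08, adjusted p = 5.86e-08) and after 8 h (-1.06 ± 0.08, adjusted p = 5.93e-09, or -1.20 ± 0.05 without H2O2 8 h replicate 2). The H2O2 24 h difference, which chose the gene, was -2.51 ± 0.08. The tests of MKI67 given here use the same untreated libraries as that choice, so their adjusted p-values are not independent of it. On the log2 scale MKI67 had reached 36.2% of its 24 h difference by 4 h of NCS and 44.1% by 8 h. With the log undone, 50.4% of the untreated value was left at 4 h and 43.5% at 8 h. Which span held most of the fall therefore depends on the scale.

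TOP2A had the lowest difference of the 10 at 4 h of NCS. The untreated libraries read 12.84, 12.75 and 12.88. NCS left 11.69, 11.71 and 11.69 after 4 h. The 8 h NCS libraries read 11.49, 11.50 and 11.55, and the 24 h ones 10.42, 10.54 and 10.53. H2O2 left 12.17, 12.29 and 12.11 after 4 h. Its 8 h libraries read 11.52, 12.07 and 11.57, and its 24 h libraries 11.04, 10.93 and 10.97. Every NCS library lay below every H2O2 library in the 4 h and in the 24 h samples, while the 8 h groups overlapped.

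The TOP2A difference from untreated cells was -1.13 ± 0.09 after 4 h of NCS (adjusted p = 8.76e-08), and no other member was past a log2 difference of 1 then. It reached -2.32 ± 0.09 after 24 h (adjusted p = 3.68e-13). By 4 h of NCS it had made 48.4% of its 24 h difference, against 34.5% by 4 h of H2O2. For the 4 h H2O2 libraries the difference was -0.64 ± 0.09 (adjusted p = 1.94e-05). The 8 h H2O2 libraries were at -1.10 ± 0.09 (adjusted p = 3.62e-08), or -1.28 ± 0.05 without H2O2 8 h replicate 2, and those taken after 24 h were at -1.84 ± 0.09.

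TOP2B moved little and came back. The untreated libraries read 11.39, 11.36 and 11.31. NCS gave 11.21, 11.16 and 11.25 after 4 h. The 8 h NCS libraries read 11.21, 11.16 and 11.16, and the 24 h ones 11.32, 11.33 and 11.21. H2O2 gave 11.17, 11.18 and 11.19 after 4 h. Its 8 h libraries read 11.11, 11.18 and 11.03, and its 24 h libraries 11.34, 11.33 and 11.35. The 4 and 8 h libraries lay below the untreated range in both treatments, and the 24 h groups overlapped it.

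The early falls of TOP2B were small and passed the test: -0.15 ± 0.04 and -0.18 ± 0.04 at 4 and 8 h of NCS (adjusted p = 0.00558 and 0.000772), and -0.17 ± 0.04 and -0.25 ± 0.04 at 4 and 8 h of H2O2 (adjusted p = 0.000497 and 1.59e-05; -0.28 ± 0.04 at 8 h without H2O2 8 h replicate 2). By 24 h of NCS the difference was -0.07 (95% interval -0.14 to 0.01, adjusted p = 0.146). From 8 to 24 h TOP2B rose by 0.23 ± 0.04 in H2O2 (adjusted p = 2.52e-05), or 0.27 without H2O2 8 h replicate 2. The NCS rise over the same span was 0.11 ± 0.04 (adjusted p = 0.0224) and lost its call without NCS 8 h replicate 2 or 3 or NCS 24 h replicate 1 or 2. Over all 6 fits with 1 of these groups' libraries left out, the difference ran from 0.09 to 0.15, with adjusted p up to 0.107.

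The log2 difference of TOP2A minus TOP2B within a library removes what the paralogs share. It was 1.47 ± 0.09 (SD, n = 3) in untreated cells. The 4 h NCS libraries had 0.49 ± 0.06, the 8 h ones 0.34 ± 0.05 and the 24 h ones -0.79 ± 0.11. In H2O2 the same 3 groups had 1.01 ± 0.10, 0.61 ± 0.25 and -0.36 ± 0.05, and the 8 h mean without H2O2 8 h replicate 2 was 0.47. In each tested group every library lay below every untreated library, with a two-sided exact permutation p of 0.1, the smallest that 3 against 3 can give, and the H2O2 24 h change was not tested.

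**Figure D2:**
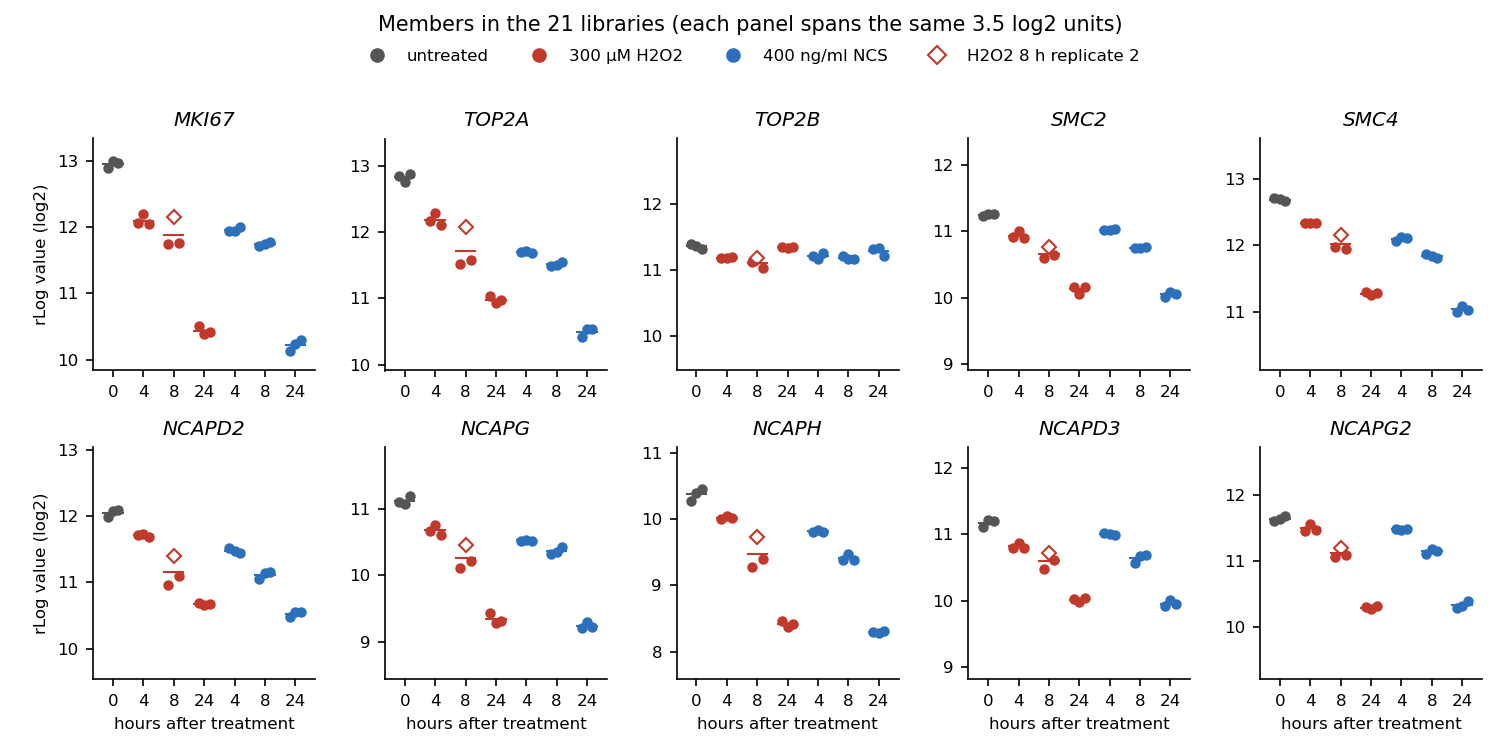
rLog values (vertical axis, log2) of the 10 members in each of the 21 libraries by hours after treatment (horizontal axis), with group means as bars; the open diamond is H2O2 8 h replicate 2, the highest of its group in all 10 panels. Each panel spans the same height, so the MKI67 difference of -2.73 at 24 h of NCS and the return of TOP2B to within 0.07 of untreated cells can be compared.

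The shared ATPase core of the condensins was lower at every time. SMC4 read 12.71, 12.70 and 12.66 in untreated cells, 12.06, 12.12 and 12.11 after 4 h of NCS, and 10.99, 11.08 and 11.02 after 24 h. Its partner SMC2 read 11.24, 11.26 and 11.26 in untreated cells, 11.02, 11.02 and 11.03 after 4 h of NCS, and 10.02, 10.08 and 10.06 after 24 h. For both genes the treated groups did not overlap with untreated cells. The SMC4 difference was -0.59 ± 0.04 in the 4 h NCS libraries (adjusted p = 5.83e-09) and -1.66 ± 0.04 in the 24 h ones (adjusted p = 7.69e-16). SMC2 differed by -0.22 ± 0.04 in the former (adjusted p = 0.00026) and by -1.20 ± 0.04 in the latter (adjusted p = 1.23e-14). H2O2 took SMC4 to -0.36 and SMC2 to -0.31 by 4 h (adjusted p = 7.99e-07 and 1.63e-06).

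Among the subunits particular to condensin I, NCAPH, the kleisin that closes the ring, had the lowest difference at 24 h of NCS, but not at 4 h, when it was at -0.56, NCAPD2 at -0.57 and NCAPG at -0.60. NCAPH read 10.27, 10.39 and 10.45 in untreated cells, 9.81, 9.83 and 9.81 after 4 h of NCS, and 8.30, 8.28 and 8.31 after 24 h. NCAPG and NCAPD2 are the HEAT-repeat subunits that bind DNA and the ring. NCAPG read 11.11, 11.08 and 11.19 in untreated cells and 9.21, 9.30 and 9.22 at 24 h of NCS, and NCAPD2 read 11.99, 12.07 and 12.10 and then 10.48, 10.56 and 10.56. The 24 h NCS differences were -2.08 ± 0.07 for NCAPH (adjusted p = 7.71e-14), -1.89 ± 0.06 for NCAPG (adjusted p = 4.33e-14) and -1.52 ± 0.07 for NCAPD2 (adjusted p = 1.48e-12).

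The subunits particular to condensin II had small differences at 4 h of NCS. NCAPD3 and NCAPG2 are its HEAT-repeat subunits. NCAPD3 read 11.12, 11.21 and 11.20 in untreated cells, 11.02, 11.01 and 10.99 after 4 h of NCS, and 9.91, 10.00 and 9.95 after 24 h. NCAPG2 read 11.61, 11.63 and 11.68 in untreated cells, 11.49, 11.48 and 11.48 after 4 h of NCS, and 10.30, 10.33 and 10.40 after 24 h. No treated library of either gene reached the untreated range.

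The 4 h NCS difference was -0.17 ± 0.05 for NCAPD3 and -0.16 ± 0.04 for NCAPG2 (adjusted p = 0.0179 and 0.00401). The NCAPD3 call was lost without untreated replicate 2 or 3, without NCS 4 h replicate 3 and after quantile normalisation (adjusted p 0.0506 to 0.0726). In the 4 h H2O2 libraries NCAPG2 was at -0.15 ± 0.04 (adjusted p = 0.00272), but NCAPD3 was at -0.36 ± 0.05 (adjusted p = 5.87e-06), beside NCAPH at -0.36 ± 0.07. After 8 h of NCS NCAPD3 was at -0.53 ± 0.05 and NCAPG2 at -0.49 ± 0.04 (adjusted p = 1.08e-07 and 8.84e-09), and after 24 h at -1.22 ± 0.05 and -1.30 ± 0.04 (adjusted p = 2.21e-13 and 3.01e-15). NCAPG2 had made 12.3% of its 24 h difference by 4 h of NCS and 11.0% by 4 h of H2O2, the smallest shares of the 9 members that were lower at 24 h. NCAPH2, the condensin II kleisin, is not among the 10 genes. It differed by 0.06 at 4 h of NCS (adjusted p = 0.482) and was at -0.87 after 24 h (adjusted p = 4.86e-11).

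The mean of NCAPD2, NCAPG and NCAPH minus the mean of NCAPD3 and NCAPG2 describes the gap between the complexes' own subunits. Untreated cells had -0.22 ± 0.03 (SD, n = 3). The 4 h NCS libraries had -0.64 ± 0.01, the 8 h ones -0.60 ± 0.01 and the 24 h ones -0.79 ± 0.02. H2O2 libraries had -0.35 ± 0.02, -0.56 ± 0.12 (-0.63 without H2O2 8 h replicate 2) and -0.68 ± 0.03 in the same order. With NCAPH2 added to the condensin II mean, untreated cells had -0.02 ± 0.02. The change from them at 4 h of H2O2 was then -0.21, against -0.13 without NCAPH2, and at 4 h of NCS -0.49 against -0.41. The 4 h H2O2 libraries lay between the untreated and the 4 h NCS libraries. No p is given for this score over members.

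**Figure D3:**
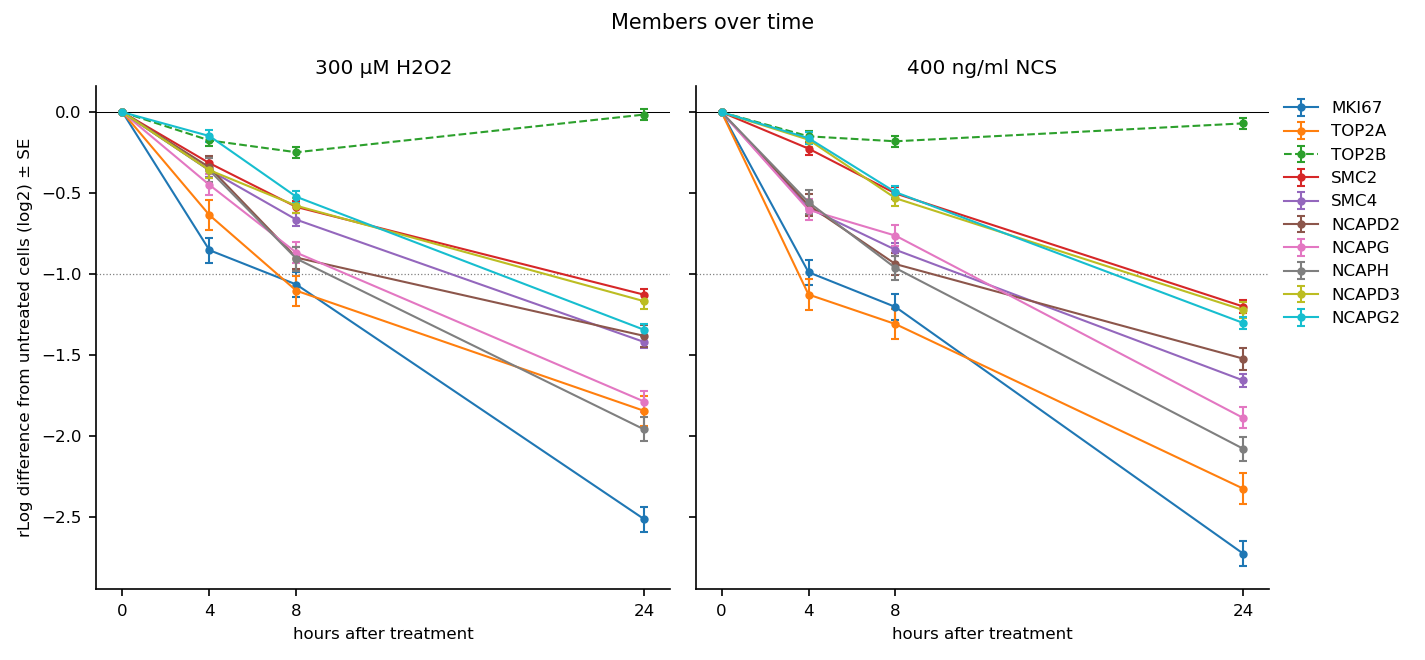
rLog difference from untreated cells (vertical axis, log2, ± SE, n = 3 per group) by hours after 300 µM H2O2 (left) or 400 ng/ml NCS (right) for the 10 members; the dotted line marks -1. The solid lines run down to between -1.13 and -2.73 at 24 h, and the dashed line, TOP2B, returns to -0.01 in H2O2 and -0.07 in NCS.

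Counted over the set, all 10 members were lower at 4 h of NCS, where 9.72% of all tested genes were, and at 8 h, where 13.3% were. By 24 h of NCS 9 of 10 were lower, all but TOP2B, beside 18.4% of all genes. The same 9 were also past a log2 difference of 1 then, a limit that 1.37% of all genes passed. TOP2A was past both limits at 4 h (0.127% of all genes; 2 members without untreated replicate 1 or NCS 4 h replicate 3), and TOP2A and MKI67 at 8 h (0.274%). These counts, and those for H2O2 below, use the untreated libraries that also entered the choice of the set. They are not independent of that choice.

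In H2O2 all 10 members were lower at 4 h (19.7% of all genes) and at 8 h (18.6%, or 19.0% without H2O2 8 h replicate 2, where all 10 were lower too). TOP2A and MKI67 were past both limits at 8 h (0.198%). Without H2O2 8 h replicate 2, NCAPH (-1.04) and NCAPD2 (-1.02) joined them, and 0.31% of all genes passed, while without H2O2 8 h replicate 1 or 3 only 1 member passed. At 4 h MKI67, the lowest at -0.85, was short of a difference of 1. After 24 h of H2O2, the contrast that chose the set, 9 of 10 members were at -1.13 to -2.51 and TOP2B was at -0.01. Among all genes 19.9% were lower there by adjusted p and 1.29% past both limits, and nothing is read from the members' place among them. The fall of these RNAs in bulk samples cannot tell fewer dividing cells from less RNA per cell.

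The order of the differences at 24 h of NCS ran MKI67, TOP2A, NCAPH, NCAPG, SMC4, NCAPD2, NCAPG2, NCAPD3, SMC2 and TOP2B. Each treated library was set against the mean of the untreated libraries, so the ranges leave out the spread of untreated cells. On that measure each gene's 3 libraries, from MKI67 to NCAPD2, were clear of the next gene's. SMC4 (up to -1.60) and NCAPD2 (down to -1.58) were barely apart. The order of neighbours was not tested. NCAPG2, NCAPD3 and SMC2 overlapped as neighbours, from -1.34 to -1.17, and TOP2B stood alone. In the 24 h H2O2 libraries, which chose MKI67 and are set against the same untreated libraries, NCAPH was at -1.96, TOP2A at -1.84 and NCAPG at -1.79, and TOP2A and NCAPG overlapped.

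H2O2 and NCS libraries were then compared at each time. At 4 h, SMC4 (0.24 ± 0.04, adjusted p = 9.69e-05), NCAPD2 (0.23 ± 0.07, adjusted p = 0.00886), NCAPH (0.20 ± 0.07, adjusted p = 0.0402) and TOP2A (0.49 ± 0.09, adjusted p = 0.000303) were higher in H2O2 than in NCS, 4 of 10 members beside 26.3% of all genes. NCAPD3 was lower in H2O2 (-0.19 ± 0.05, adjusted p = 0.00332), 1 of 10 beside 18.0% of all genes. With 10 genes, neither share is read here as a result about the members. The NCAPH call was lost when any 1 of the 6 libraries was left out (adjusted p 0.0652 to 0.103).

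At 8 h SMC4 was higher in H2O2 by 0.19 ± 0.04 (adjusted p = 0.00126), 1 of 10 members beside 18.7% of all genes; fitted on these 6 libraries alone its adjusted p was 0.0658. Without H2O2 8 h replicate 2 it stayed higher by 0.12 ± 0.03 (adjusted p = 0.00166), and SMC2 (-0.13 ± 0.03), NCAPG (-0.21 ± 0.05) and TOP2B (-0.10 ± 0.04) were lower, so that 4 of 10 passed in either direction beside 35.9% of all genes. TOP2A, at 0.21 ± 0.09 with all libraries (adjusted p = 0.104), was at 0.03 ± 0.05 without that library (adjusted p = 0.714). MKI67 went from 0.14 ± 0.08 (adjusted p = 0.197) to 0.00 ± 0.05.

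At 24 h TOP2A (0.48 ± 0.09, adjusted p = 0.000906) and SMC4 (0.24 ± 0.04, adjusted p = 0.00024) were higher in H2O2 than in NCS, 2 of the 9 members tested, beside 11.0% of all genes. For TOP2A this is 140% of the NCS value with the log undone. MKI67, which is not tested here, was higher in H2O2 by 0.21. The other 7 did not pass: NCAPG2 differed by -0.04 (95% interval -0.12 to 0.03), SMC2 by 0.07 (-0.01 to 0.15), NCAPD3 by 0.05 (-0.05 to 0.15) and TOP2B by 0.05 (-0.02 to 0.13). Intervals for NCAPG, NCAPH and NCAPD2 were wider and reached 0.24, 0.28 and 0.28.

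**Figure D4:**
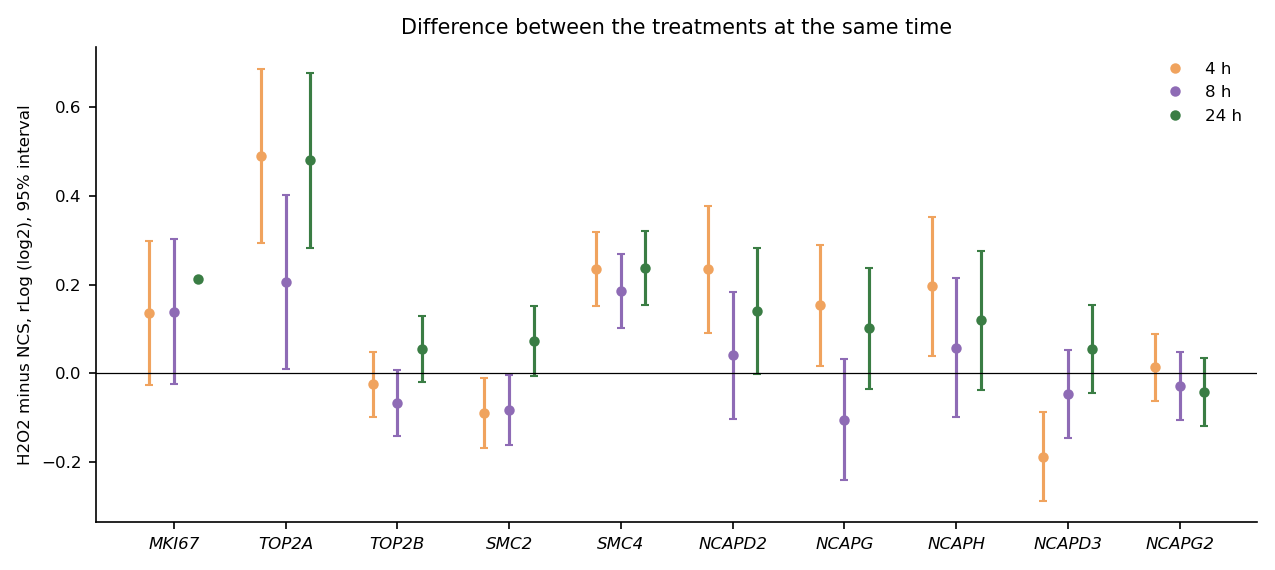
Difference between H2O2 and NCS at the same time (vertical axis, rLog, log2; bars are 95% intervals) for each member at 4, 8 and 24 h; MKI67 at 24 h has no interval because it was not tested there. With all libraries, TOP2A is higher in H2O2 by 0.49 at 4 h and 0.48 at 24 h. SMC4 is higher by 0.19 to 0.24 at each time and NCAPG2 lies within 0.05 of 0, again with all libraries. Without H2O2 8 h replicate 2, the 8 h difference was 0.12 for SMC4 and -0.07 for NCAPG2.

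Between 4 and 8 h the falls went on at different rates. In H2O2, 9 of 10 members fell (27.7% of all genes), from -0.21 ± 0.08 for MKI67 (adjusted p = 0.0325) to -0.56 ± 0.07 for NCAPD2 (adjusted p = 2.31e-06), and TOP2B differed by -0.07 (adjusted p = 0.103, or -0.11 with an adjusted p of 0.0183 without H2O2 8 h replicate 2). The MKI67 step lost its call without H2O2 4 h replicate 2 or H2O2 8 h replicate 1 or 3, and was -0.35 ± 0.05 without H2O2 8 h replicate 2. Without that library all 10 members fell (26.3% of all genes), with NCAPH and NCAPD2 both at -0.68. In NCS, 6 of 10 fell (7.5% of all genes): SMC2, SMC4, NCAPD2, NCAPD3, NCAPG2 and NCAPH, by 0.26 to 0.41. TOP2A (-0.18, 95% interval -0.38 to 0.01), NCAPG (-0.16, -0.30 to -0.02) and MKI67 (-0.21, -0.38 to -0.05) did not pass after adjustment.

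Between 8 and 24 h all members but TOP2B fell again in NCS, 9 of 10 beside 15.0% of all genes, with MKI67 (-1.52 ± 0.08, adjusted p = 4.93e-11), NCAPG (-1.13 ± 0.06, adjusted p = 2.28e-10) and NCAPH (-1.12 ± 0.07, adjusted p = 1.45e-09) in front. In H2O2, 8 of the 9 members tested fell (23.2% of all genes), from -0.48 ± 0.07 for NCAPD2 to -1.05 ± 0.07 for NCAPH, and MKI67, not tested there, differed by -1.45. Without H2O2 8 h replicate 2 8 of 9 fell (23.8% of all genes), with NCAPD2 at -0.36, TOP2A at -0.57 in place of -0.74, NCAPH at -0.92 and MKI67 at -1.31. TOP2B was the member that rose, beside 19.4% of all genes in H2O2 and 14.9% in NCS.

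Whether the gap between the treatments itself changed was tested as an interaction. From 4 to 8 h the gap of H2O2 minus NCS fell for NCAPG (-0.26 ± 0.09, adjusted p = 0.0376), 1 of 10 members beside 32.7% of all genes in either direction. From 8 to 24 h it rose for SMC2 (0.16 ± 0.05, adjusted p = 0.0418), 1 of 9 beside 21.4% in either direction. Both counts depended on single libraries, and most on H2O2 8 h replicate 2. Without it the gap fell from 4 to 8 h for 5 of 10 members (34.4% of all genes in either direction), with TOP2A at -0.46 ± 0.07 (adjusted p = 3.23e-05), and rose from 8 to 24 h for 8 of 9 (26.0% of all genes in either direction), with TOP2A at 0.45 ± 0.07 (adjusted p = 6.92e-05). Both interactions hold the 8 h gap, with opposite sign, so the fall and the rise are not separate results. That library was the highest of its group in all 10 members, so leaving it out lowers the 8 h gap of each.

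Across the 21 libraries, MKI67 ran most closely with KIFC1 (Pearson r = 0.997), KIF11 (0.995), STIL (0.995), AURKB (0.995) and CENPJ (0.994) among 11680 genes with a mean of at least 5. KIFC1 and KIF11 are spindle motors, AURKB is the kinase of the chromosomal passenger complex, and STIL and CENPJ build centrioles. Among the members its r was 0.990 with NCAPG, 0.986 with SMC4, 0.983 with NCAPH, 0.964 with TOP2A and -0.18 with TOP2B. TOP2B ran with KLHL5 (0.918), ARHGEF12 (0.918), SLC44A1 (0.901), FBXL7 (0.895) and CYP1B1 (0.890). These values describe libraries that share groups and are not tests.

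Genes that act with condensins in mitosis fell alongside them. All 13 condensation partners tested were lower at 24 h of NCS, with a median difference of -1.94 beside 0.00 for all genes, and 11 of 13 were lower at 4 h. PLK1 (-2.87), a mitotic kinase, and CDCA8 (-2.55) and AURKB (-2.14), of the chromosomal passenger complex, were lowest at 24 h, followed by CDCA2 (-2.07), which recruits a phosphatase to anaphase chromosomes, and BIRC5 (-2.07). In the 24 h H2O2 libraries 13 of 13 were lower, with PLK1 at -2.30. Among all genes, 9.72% were lower at 4 h and 18.4% at 24 h of NCS, and 19.9% at 24 h of H2O2. These shares also stand beside the counts of lower genes in the lists below.

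Cohesin, the related ring that holds sister chromatids together, was split. After 24 h of NCS 11 of its 14 genes were lower and 2 higher (19.6% of all genes were higher), with a median of -0.42. CDCA5 (-1.74), which protects cohesin until mitosis, and ESCO2 (-1.58), which acetylates it in S phase, were past a difference of 1, while the core subunits SMC3 (-0.80), RAD21 (-0.80) and SMC1A (-0.80) lay close together. At 4 h of NCS 7 of 14 were lower, led by RAD21 (-0.58), when CDCA5 was at -0.04 (adjusted p = 0.683). After 24 h of H2O2 11 were lower and 1 higher (20.2% of all genes).

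The SMC5/6 complex and other topoisomerases changed less. After 24 h of NCS 4 of 7 SMC5/6 genes were lower and 1 higher, with a median of -0.27, and NSMCE4A (-0.57) was lowest. Among 8 other topoisomerases and their partners 4 were lower, RMI2 (-0.90), RMI1 (-0.84), the tyrosyl-DNA repair enzyme TDP1 (-0.79) and TOP3A (-0.58). TOP1, the main enzyme that nicks single strands, differed by -0.25 after 4 h of NCS (adjusted p = 5.16e-05) and by -0.0039 after 24 h (adjusted p = 0.964). In the 24 h H2O2 libraries 4 of 7 and 4 of 8 were lower, and 2 in each list higher.

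**Figure D5:**
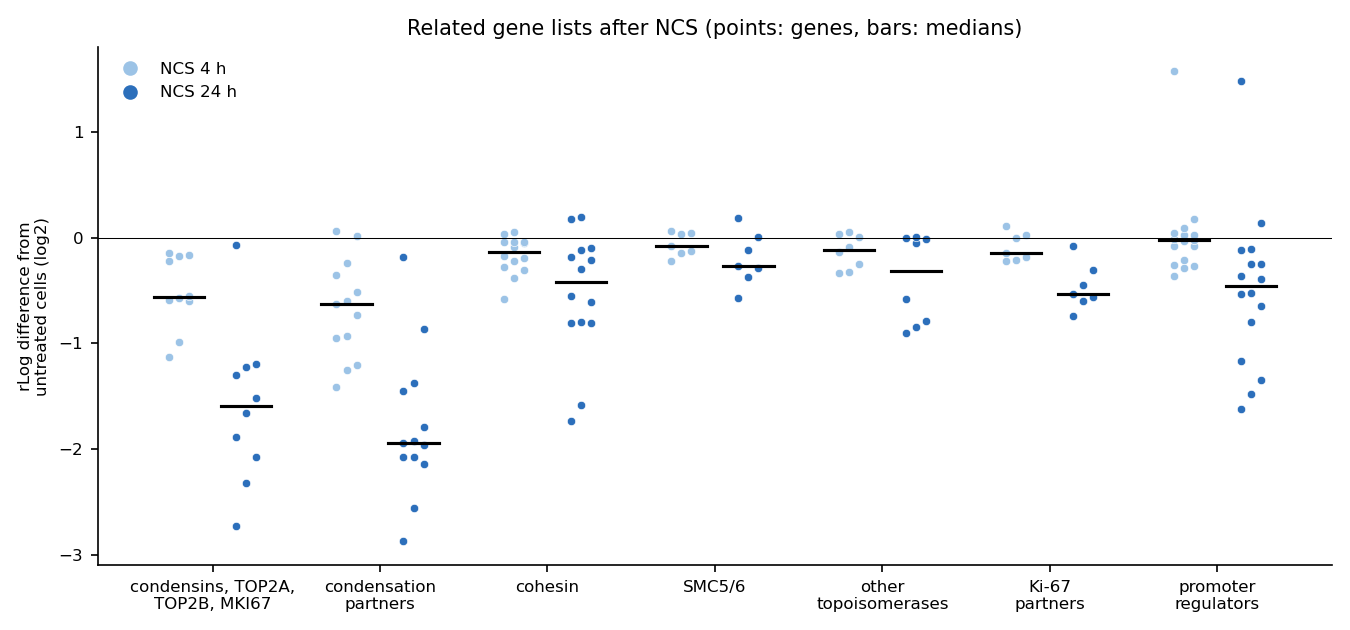
rLog differences from untreated cells (vertical axis, log2) at 4 h (light) and 24 h (dark) of NCS for the 10 members and for the related lists; each point is a gene and each bar a list's median. At 24 h the medians lie at -1.59 for the members, -1.94 for condensation partners, -0.42 for cohesin and -0.27 for SMC5/6.

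Genes for proteins that Ki-67 binds had smaller differences than MKI67 itself. Of these, 6 of 7 were lower after 24 h of NCS, with CBX5 (-0.74), CBX3 (-0.60) and CBX1 (-0.56), the heterochromatin proteins, NCL (-0.53) and the phosphatase subunit PPP1CC (-0.45) in front. NIFK, listed under its older symbol MKI67IP, differed by -0.08 (adjusted p = 0.149). At 4 h 4 of 7 were lower, and at 24 h of H2O2 6 of 7.

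A list of 16 genes held those known to read or restrain such promoters, and also CDKN1A, an inhibitor of kinases. At 24 h of NCS 14 were lower and 2, LIN37 and CDKN1A, higher, and 5 were lower and 2 higher at 4 h (7.47% of all genes were higher). MYBL2 (-1.63) and FOXM1 (-1.47), activators of mitotic genes, were lowest at 24 h, with RBL1 (-1.34) and LIN9 (-1.17), a MuvB subunit. The other MuvB subunits listed did not move alike: LIN54 was at -0.80, LIN52 at -0.52, RBBP4 at -0.36 and LIN37 at 0.13 (adjusted p = 0.0338). At 4 h of NCS, when MKI67 was at -0.99 and TOP2A at -1.13, MYBL2 was at 0.09 (adjusted p = 0.198) and FOXM1 at -0.26 (adjusted p = 0.000534). CDKN1A, the p53 target p21 that inhibits cyclin-dependent kinases, rose by 1.58 in the 4 h NCS libraries (adjusted p = 4.57e-11) and 1.48 in the 24 h ones (adjusted p = 8.11e-12). After 24 h of H2O2 12 were lower and 2 higher.

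Some members share exon sequence with genes on the other strand, and the strand setting of the counting is not given in the sources used here. SMC4 overlaps TRIM59 over 1561 exon bases and IFT80 over 607, and TRIM59 differed by -0.69 at 4 h and -0.80 at 24 h of NCS, against -0.02 for IFT80 at 24 h. NCAPG overlaps LCORL over 1631 bases, which differed by -0.60 at 24 h of NCS. NCAPD2 overlaps MRPL51 (0.01 at 24 h of NCS) over 486 bases, and NCAPD3 overlaps JAM3 (-0.03) and VPS26B (0.10). TOP2B shares 32 bases with the microRNA gene MIR4442 on its own strand and 28 with RARB. The part of these overlaps in the values was not tested.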

How the data were processed

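RNA from hTERT-HPNE cells, 3 biological replicates in each of 7 groups, was prepared with a stranded mRNA kit and sequenced with paired ends. The authors aligned reads with HISAT2 at default settings, took gene counts from htseq-count, and name hg19 in their processing notes. Versions, annotation and strand setting are not given in the sources used here. The deposited values are rLog values, which the authors made with DESeq2 on a log2 scale over all 21 libraries, with library medians of 7.14 to 7.19, so depth is unknown.

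The members and lists were chosen with earlier results of these data known. A gene at 0 in every library was left out (3674 of 23368). Group contrasts were fitted with limma 3.58.1 (trend, all 7 groups, R 4.3.3) on 19694 genes, with Benjamini-Hochberg adjustment over all of them and calls at an adjusted p under 0.05. The second limit was an absolute log2 difference over 1. Every member was named, and up to 5 genes of each list, those with the largest differences past the adjusted p, plus genes whose role the text needs. Alternatives were 2 other normalisations, a mean of at least 5, only the groups compared, a replicate block, no trend, a log2 difference over 0.58 and each library left out. Those for time steps and interactions were added after seeing the data. Promoters come from RefSeq (GRCh38.p14) and exon overlaps from a GENCODE annotation of the same genome; neither is the hg19 build of the files.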

Additional observations from a re-analysis of the deposited data

Results flagged for a closer look

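The gap of H2O2 minus NCS differed between times for 2 members, 1 in each span. Among all genes 32.7% passed from 4 to 8 h and 21.4% from 8 to 24 h, so neither count is read as a result about the members. From 4 to 8 h it changed by -0.26 ± 0.09 for NCAPG (adjusted p = 0.0376), and by -0.36 ± 0.07 without H2O2 8 h replicate 2. From 8 to 24 h it changed by 0.16 ± 0.05 for SMC2 (adjusted p = 0.0418), and by 0.20 ± 0.05 without that library. Each call was lost when certain other single libraries were left out, with adjusted p up to 0.114 for NCAPG (without H2O2 8 h replicate 1) and 0.122 for SMC2 (without the same library). In 5 of the members the 4 to 8 h change passed without H2O2 8 h replicate 2 (34.4% of all genes), against 1 with it.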

How the results depend on the processing

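No result of the members changed direction past its threshold. Of the alternative values of the counts and of TOP2A minus TOP2B, 385 stayed within 1.5 times or 1 SD and 51 did not. Members lower in H2O2 than NCS went from 1 to 2 at 4 h (medians aligned, mean of at least 5, only the groups compared; 1 to 2 with a library left out). At 8 h 2 were lower after quantile normalisation (0 to 3 with a library left out), and 3, 2 and 0 were higher with medians aligned, a mean of at least 5 and only the groups compared (1 to 2 with a library left out). Of the 0, limma gave SMC4 an adjusted p of 0.0658. At 24 h 4 were higher with only the groups compared. At a log2 difference over 0.58, 2 members at 4 h and 7 at 8 h of H2O2, and 4 at 4 h and 6 at 8 h of NCS, passed both limits. With medians aligned 2 passed at 4 h of NCS. With a library left out 1 to 4 passed at 8 h of H2O2 and 1 to 2 at 4 h of NCS. The count of members higher at 24 than at 8 h of NCS was 0 to 1 with a library left out. The 4 to 8 h interaction gave 3, 2 and 0 members with medians aligned, a mean of at least 5 and no trend (0 to 5 with a library left out), and the 8 to 24 h one 0, 2 and 4 with medians aligned, quantile normalisation and a mean of at least 5 (0 to 8 with a library left out). The causes were not tested. No share of all genes is set beside the counts in this paragraph, so they say only how far the members' own counts moved.

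Same-numbered libraries deviated together little (mean correlation 0.03 over 63 pairs, -0.15 to 0.21, against a mean of -0.01 for other-numbered pairs). Whether the numbers mark paired cultures is not known from this, and the main fit used no pairing. With a replicate block 9 of 10 members were lower at 24 h of NCS and no call changed. Shrunken values without counts limit what can be said of small differences.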
